A study of Mus musculus with 44 samples.

Results

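The zona pellucida and oocyte-secreted factors examined here are 7 of the 35269 genes in the single-embryo RNA-seq table: *Zp1*, *Zp2*, *Zp3*, *Gdf9*, *Bmp15*, *Oosp1* and *Astl*. They are listed by name, as transcripts that the oocyte leaves to the embryo, and the list was drawn up with earlier results of these data known. All 7 passed the filter on low values, for which the log2 RPM of a gene had to average 0 or more across embryos. RPM is the number of reads of a gene for every 1000000 reads counted in that embryo.

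The transcriptomes of 44 single two-cell mouse embryos were compared, from 6 litters of natural matings, with the zona pellucida taken off before lysis. Dppa2/4+/+ embryos (n = 14) came from Dppa2/4+/+ females and Dppa2/4+/+ males, labelled ctrl-x-WT, with 10 embryos in litter 1 and 4 in litter 2. Dppa2/4+/- embryos with a +/+ sire (n = 15; 7 and 8) came from Dppa2/4m- females and Dppa2/4+/+ males, labelled cKO-x-WT. Dppa2/4m- females mated with Dppa2/4+/- males, labelled cKO-x-HET, gave Dppa2/4+/- embryos with a +/- sire (n = 5; 4 and 1) and Dppa2/4-/- embryos (n = 10; 3 and 7). Dppa2/4m- females are on a C57Bl/6 background and carry conditional alleles of *Dppa2* and *Dppa4*, 2 chromatin factors of the early embryo, deleted in growing oocytes by Cre under the *Zp3* promoter. Maternal Dppa2/4 was therefore removed in the mothers of every group but the Dppa2/4+/+ embryos, by a driver taken from one of the 7 genes. The labels number matings 1 and 2 of each cross, and each mating is read here as 1 litter. A litter belongs to 1 group, except that Dppa2/4+/- embryos with a +/- sire and Dppa2/4-/- embryos share their 2 litters, so group and litter cannot be told apart in comparisons with Dppa2/4+/+ embryos.

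Total reads per embryo ranged from 247667 to 3163026, with group medians between 528166 (Dppa2/4+/- embryos, +/+ sire) and 1770010 (Dppa2/4+/+ embryos). *Dppa2* stood at 8.46 ± 0.55 log2 RPM in Dppa2/4+/+ embryos (SD, n = 14), 6.47 ± 1.02 and 6.42 ± 1.54 in Dppa2/4+/- embryos with a +/+ sire (n = 15) and a +/- sire (n = 5), and 1.89 ± 0.06 in Dppa2/4-/- embryos (n = 10). The authors had used *Dppa2* and *Dppa4* transcripts to assign the last 2 genotypes, so these levels are no independent check there. Of 12 two-cell stage genes of the marker lists, 11 were among the deposited genes and all 11 were detected, while *Zscan4a* was absent. All 12 oocyte genes were detected. Of 10 sperm markers, 6 (*Tnp1*, *Tnp2*, *Odf1*, *Akap4*, *Smcp* and *Acr*) had 0 reads in every embryo, and the summed level of the list was at most 9.13 RPM. Of 12 granulosa cell markers, *Fshr* and *Inhbb* had 0 reads, and only 3 passed the filter on low values. These were *Serpine2*, *Kitl* and *Cyp19a1*, with reads in 43, 34 and 16 embryos. *Kitl* is also listed below among the other oocyte-secreted factors. *Amh*, *Foxl2*, *Inha* and *Cyp11a1* had at most 3 reads in any embryo. The sum of the list had a median of 18.6 to 30.7 RPM in the 4 groups and reached 74.0 RPM. Whether these reads came from granulosa cells was not tested.

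The zona pellucida is the glycoprotein coat of the egg, made by the growing oocyte from the products of *Zp1*, *Zp2* and *Zp3* in the mouse. Sperm bind to this coat, and after fertilisation ovastacin, the cortical granule protease encoded by *Astl*, cleaves ZP2 so that further sperm no longer bind. *Gdf9* and *Bmp15* encode ligands of the TGF-beta family that the oocyte secretes to the surrounding granulosa and cumulus cells, where they act through receptors such as BMPR2 and through SMAD proteins. *Oosp1* encodes a small oocyte-secreted protein. These genes are transcribed during oocyte growth, and much of the stored maternal RNA is degraded around the two-cell stage. RPM is a share of an embryo's reads, so fewer copies of such a transcript and more of other RNA in the same embryo cannot be told apart. Capture was by oligo-dT, so a level is that of polyadenylated RNA, and it does not tell stored RNA from newly made RNA.

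In GRCm38, GENCODE and the authors' table place all 7 genes at the same coordinates, which are protein-coding, and 0 annotated genes overlap any of them. *Zp1* lies on chromosome 19 (10914287 to 10920632, reverse strand), as does *Oosp1* (11667460 to 11691150, reverse strand). *Zp2* lies on chromosome 7 (120126772 to 120145291, reverse strand) and *Zp3* on chromosome 5 (135980099 to 135988624, forward strand). *Gdf9* lies on chromosome 11 (53431023 to 53437904, forward strand), *Bmp15* on chromosome X (6314107 to 6320721, reverse strand) and *Astl* on chromosome 2 (127338639 to 127357651, forward strand).

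Upstream sequence from RefSeq (GRCm38.p6) was matched for 4 of the 7 genes, *Zp3*, *Bmp15*, *Oosp1* and *Astl*. The 250 bases before the start site are shown for *Zp3*, whose promoter drives the Cre, and for *Bmp15* and *Oosp1*, the genes with the highest levels, on the strand of each gene. Capitals mark every CANNTG, the E-box bound by basic helix-loop-helix factors such as FIGLA of the oocyte, and every TAATTA or TAATTG, the core read by the oocyte homeobox factor NOBOX.
*Zp3*, chr5:135979855-135980104, forward strand: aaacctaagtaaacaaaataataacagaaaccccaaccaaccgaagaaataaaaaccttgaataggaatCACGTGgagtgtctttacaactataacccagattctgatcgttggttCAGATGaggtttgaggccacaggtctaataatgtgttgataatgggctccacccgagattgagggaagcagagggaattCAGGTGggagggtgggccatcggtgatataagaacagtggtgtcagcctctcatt
*Bmp15*, chrX:6320725-6320974, reverse strand: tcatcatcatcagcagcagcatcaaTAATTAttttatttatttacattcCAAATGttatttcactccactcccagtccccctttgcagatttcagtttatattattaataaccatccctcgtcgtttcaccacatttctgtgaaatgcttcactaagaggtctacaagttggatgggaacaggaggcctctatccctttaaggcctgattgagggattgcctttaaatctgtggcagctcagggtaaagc
*Oosp1*, chr19:11691052-11691301, reverse strand: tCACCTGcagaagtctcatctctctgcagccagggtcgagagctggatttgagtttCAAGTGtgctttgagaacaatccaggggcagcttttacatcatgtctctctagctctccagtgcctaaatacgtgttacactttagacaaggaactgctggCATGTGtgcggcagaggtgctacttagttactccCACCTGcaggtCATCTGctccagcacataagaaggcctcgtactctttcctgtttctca

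The *Zp3* window held 3 E-boxes that do not overlap one another, beginning 181, 134 and 55 bases before the start site; the first reads cacgtg. The *Oosp1* window held 5, and *Bmp15* held 1 E-box and 1 TAATTA. *Astl* has 2 RefSeq start sites, with 0 E-boxes before the first (chr2:127338389-127338638) and 3 before the second (chr2:127341386-127341635), all 3 reading caggtg. Both strands were searched. Of 27025 windows of the same length, 66.0% held at least 1 CANNTG, with a mean of 1.15, and 6.05% held CACGTG. The sequence TAATTA was present in 4.90% of these windows, and a further motif, TAATTG, in 7.34%. The GENCODE starts of *Oosp1*, at 11691150, and *Zp3*, at 135980099, lie inside their RefSeq windows. The *Oosp1* E-boxes at 93, 59 and 48 bases therefore lie within its GENCODE gene and not before it. A match of letters is a description of the window and not a binding site.

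Transcripts of all 7 genes were found in two-cell embryos, at very unequal levels. Together they took between 0.0242% and 0.289% of an embryo's reads. Divided by the length of the annotated exons, the median level over 44 embryos was 240 RPM per kb for *Oosp1* and 185 RPM per kb for *Bmp15*. *Gdf9* (29.7 RPM per kb), *Zp3* (29.2) and *Zp2* (16.3) came next, then *Zp1* (10.7), and *Astl* was last at 0.755 RPM per kb. The oocyte-secreted ligand *Bmp15* was above its relative *Gdf9* in 43 of 44 embryos. Lower down, *Gdf9* was above *Zp3* in 28 of 44 embryos, *Zp3* above *Zp2* in 33, *Zp2* above *Zp1* in 28 and *Zp1* above *Astl* in 38. The order of the middle genes turned between groups. By group median, *Zp3* (50.8 RPM per kb) was above *Gdf9* (32.7) in Dppa2/4-/- embryos, *Zp2* (23.1) above *Zp3* (19.5) in Dppa2/4+/- embryos with a +/- sire, and *Zp1* (14.9) above *Zp2* (13.2) in those with a +/+ sire. *Oosp1* was above *Bmp15* per kb in 37 of 44 embryos. Reads of *Zp2*, *Gdf9*, *Bmp15* and *Oosp1* were found in all 44 embryos, of *Zp3* in 43, of *Zp1* in 40 and of *Astl* in 28.

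Counting error alone was small beside the spread between embryos for the abundant genes. In Dppa2/4+/+ embryos the coefficient of variation of the *Bmp15* level was 73.1%, where its read counts would give 3.47%, and for *Oosp1* the same figures were 79.7% and 5.83%. For *Astl* the reads would give 48.6% of an observed 129%. *Astl* had 0 to 29 reads per embryo.

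**Figure D1:**
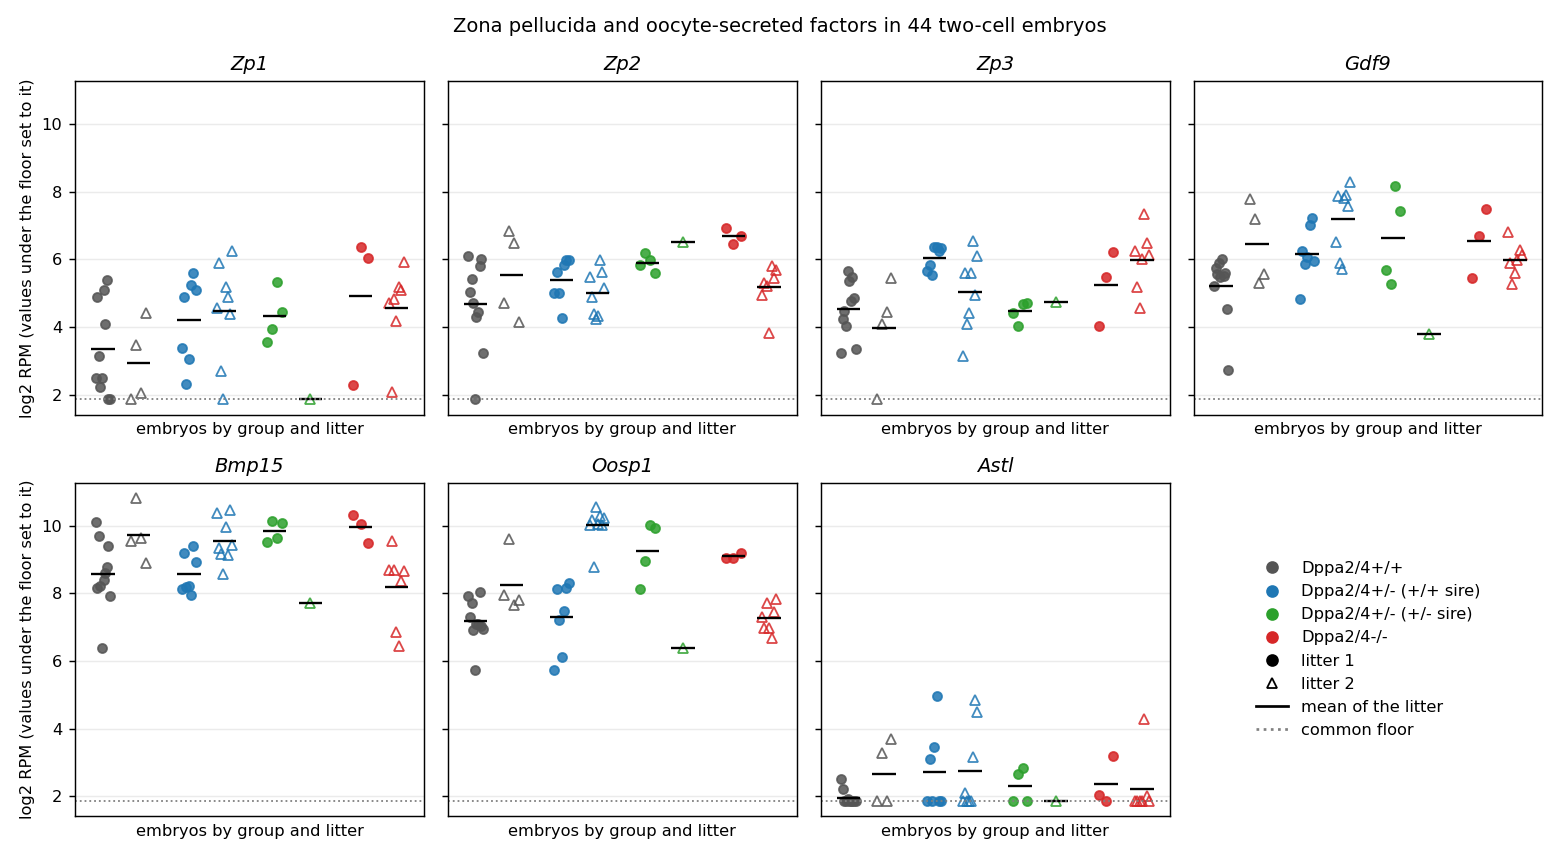
Level of each of the 7 genes in 44 two-cell embryos (y axis: log2 RPM, with values under the common floor of 1.86 set to it, dotted line). Columns from left to right are litters 1 (filled circles) and 2 (open triangles) of each group, by colour, and bars are litter means. *Oosp1* separates the litters of the Dppa2/4+/- embryos with a +/+ sire and of the Dppa2/4-/- embryos, and most *Astl* values lie at or near the floor.

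Whether the loss of maternal Dppa2/4 went with another level of these transcripts was asked by comparing each group with Dppa2/4+/+ embryos, which are shared by all 3 comparisons. No member passed the test in any of them. In Dppa2/4+/- embryos with a +/+ sire, 0 of 7 were called, where 4.58% of all 16412 genes tested were called (limma, Benjamini-Hochberg adjusted p under 0.05). In Dppa2/4+/- embryos with a +/- sire, 0 of 7 were called against 0.0305% of all genes, and in Dppa2/4-/- embryos 0 of 7 against 0.0183%. The median difference of the 7 genes from Dppa2/4+/+ embryos was 1.12, 0.52 and 0.58 on the log2 scale in these 3 groups, beside 0.05, -0.0007 and 0.09 for all genes tested. The baseline over all genes depended on the common floor. On the deposited values without it, the medians were 1.14 for the 7 genes and 0.61 for all genes with a +/+ sire, 0.52 and 0.07 with a +/- sire, and 0.73 and 0.49 in Dppa2/4-/- embryos. With limma voom on the recovered reads they were 0.91 and 0.50, 0.38 and 0.04, and 0.70 and 0.43. The median of the 7 genes also depended on single litters. On leaving out litters in turn it ran from 0.26 to 0.97 with a +/+ sire, from -1.09 to 0.96 with a +/- sire and from -0.30 to 1.05 in Dppa2/4-/- embryos. The lowest of these were without litter 1 of the ctrl-x-WT mating for the first and last group, and without litter 1 of the cKO-x-HET mating, which leaves 1 embryo, for the second. With litter means as replicates the 3 medians were 0.84, -0.062 and 0.46. In the first comparison 1 to 4 members passed under 5 of the 12 other settings and on leaving out 2 of the 4 litters in turn. Over all genes, those settings called from 593 to 4054 of 16412, or 1046 of 6919 at a mean of at least 3 log2 RPM. The main fit called 752 of 16412.

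Among the zona genes, *Zp3* had the lowest adjusted p with a +/+ sire and in Dppa2/4-/- embryos, and *Zp2* with a +/- sire. Its level in Dppa2/4+/+ embryos ran from 0 to 50.6 RPM with a median of 22.1 RPM, and in Dppa2/4+/- embryos with a +/+ sire from 8.83 to 92.5 RPM with a median of 50.2 RPM. The 5 Dppa2/4+/- embryos with a +/- sire held 21.5, 16.2, 25.8, 26.3 and 26.7 RPM, all within the range of Dppa2/4+/+ embryos. Dppa2/4-/- embryos ran from 16.4 to 163 RPM with a median of 67.2 RPM. The groups overlap, with the upper part of both the Dppa2/4+/- (+/+ sire) and Dppa2/4-/- embryos above every Dppa2/4+/+ embryo. The difference from Dppa2/4+/+ embryos was 1.14 ± 0.35 on the log2 scale (SE) with a +/+ sire (limma, adjusted p = 0.0504) and 1.39 ± 0.39 in Dppa2/4-/- embryos (limma, adjusted p = 0.123), but 0.14 ± 0.49 with a +/- sire (limma, adjusted p = 1). The first of these passed with the mating number as a replicate block (limma, adjusted p = 0.0426) and missed it with litter as a random effect (limma, adjusted p = 0.455). Under these settings 593 and 0 of 16412 genes were called. Over 16 other settings the limma adjusted p ran from 0.0197 to 1, with differences from 0.67 to 1.67. Dppa2/4-/- embryos were also compared with their Dppa2/4+/- littermates, with litter in the model. There the *Zp3* difference was 0.94 ± 0.48 (limma, adjusted p = 0.947), and 0 of 7 members were called against 0.0122% of all genes.

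*Zp1*, the zona protein that links the filaments, was at 0 to 41.7 RPM (median 7.25) in Dppa2/4+/+ embryos and 0 to 75.7 RPM (median 29.6) in Dppa2/4+/- embryos with a +/+ sire. With a +/- sire the 5 embryos held 11.7, 15.3, 40.1, 21.8 and 2.90 RPM, and Dppa2/4-/- embryos held 4.26 to 82.7 RPM (median 31.1). High and low embryos occurred in every group. The differences from Dppa2/4+/+ embryos were 1.12 ± 0.50, 0.59 ± 0.70 and 1.44 ± 0.55 on the log2 scale in the same order (limma, adjusted p = 0.205, 0.896 and 0.228).

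*Zp2*, the substrate of ovastacin, ran from 0.949 to 113 RPM (median 29.7) in Dppa2/4+/+ embryos and from 19.0 to 63.8 RPM (median 36.0) in Dppa2/4+/- embryos with a +/+ sire. The 5 embryos with a +/- sire were at 57.1, 73.0, 63.0, 48.1 and 92.1 RPM, all above the Dppa2/4+/+ median, and Dppa2/4-/- embryos at 14.2 to 121 RPM (median 47.4). Differences from Dppa2/4+/+ embryos were 0.26 ± 0.35, 1.09 ± 0.50 and 0.70 ± 0.39 (limma, adjusted p = 0.745, 0.545 and 0.419). On leaving out litters or embryos the second ran from 0.48 to 1.59 and the third from 0.093 to 1.76, both lowest without litter 1 of the ctrl-x-WT mating. *Astl*, which encodes the protease itself, was at 0 to 12.97 RPM in Dppa2/4+/+ embryos and reached 31.0, 7.16 and 19.5 RPM in the other groups, with a median of 1.38 to 2.34 RPM in all 4. Its differences from Dppa2/4+/+ embryos lay between 0.05 and 0.56 (limma, adjusted p from 0.355 to 1).

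Of the secreted factors, *Gdf9* was at 6.58 to 219 RPM in Dppa2/4+/+ embryos (median 47.1), 28.3 to 312 RPM in Dppa2/4+/- embryos with a +/+ sire (median 92.3) and 38.6 to 180 RPM in Dppa2/4-/- embryos (median 66.4). The 5 Dppa2/4+/- embryos with a +/- sire spanned nearly the whole range, at 52.0, 38.8, 286, 172 and 13.9 RPM. The differences from Dppa2/4+/+ embryos were 1.14 ± 0.40, 0.50 ± 0.56 and 0.58 ± 0.44 for the +/+ sire, the +/- sire and the Dppa2/4-/- embryos (limma, adjusted p = 0.0898, 0.891 and 0.555). *Bmp15* had medians of 462 RPM in Dppa2/4+/+ embryos (83.1 to 1813), 577 RPM with a +/+ sire (246 to 1409) and 416 RPM in Dppa2/4-/- embryos (86.5 to 1287). With a +/- sire it stood at 737, 1124, 800, 1083 and 210 RPM. Its differences from Dppa2/4+/+ embryos were 0.20 ± 0.37, 0.52 ± 0.52 and -0.19 ± 0.41 (limma, adjusted p = 0.827, 0.885 and 0.881).

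*Oosp1* was at 53.7 to 780 RPM in Dppa2/4+/+ embryos (median 181), 53.4 to 1492 RPM in Dppa2/4+/- embryos with a +/+ sire (median 443) and 102 to 587 RPM in Dppa2/4-/- embryos (median 192). The 5 embryos with a +/- sire held 281, 502, 1035, 977 and 84.6 RPM, the last of them the only one from litter 2. Differences from Dppa2/4+/+ embryos were 1.26 ± 0.45, 1.2 ± 0.63 and 0.33 ± 0.50 (limma, adjusted p = 0.0958, 0.621 and 0.8). The first of these changed with the litter left out. Without litter 1 of the cKO-x-WT mating it was 2.52 (limma, adjusted p = 4.07e-05), and without litter 2 it was -0.18 (limma, adjusted p = 0.911).

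**Figure D2:**
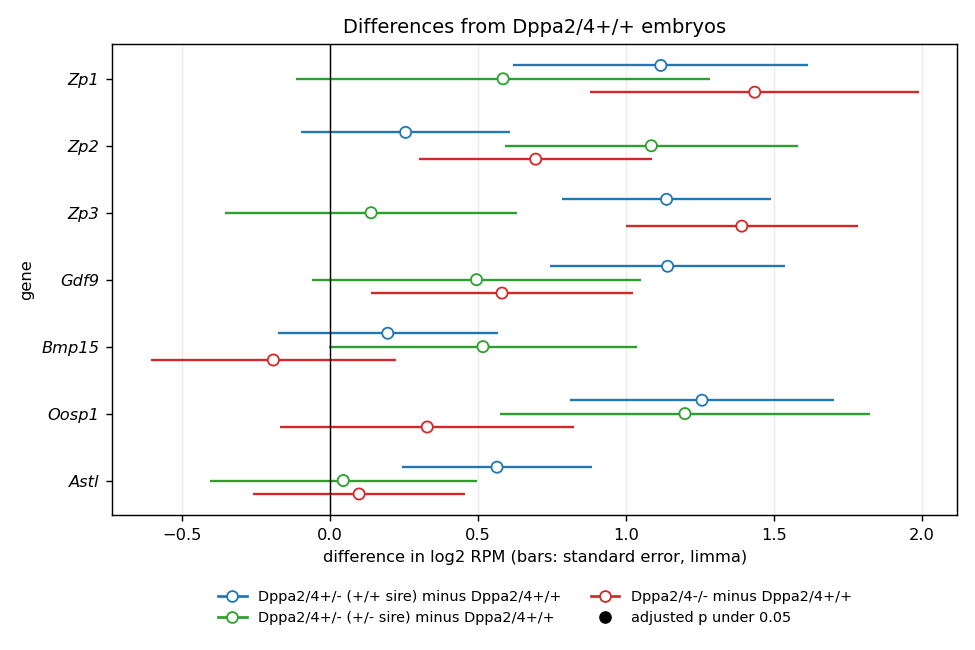
Difference of each group from Dppa2/4+/+ embryos for the 7 genes (x axis: log2 RPM; bars: standard error from limma; open points: adjusted p of at least 0.05). All 21 points are open. *Zp1*, *Zp3*, *Gdf9* and *Oosp1* lie between 1.12 and 1.26 in Dppa2/4+/- embryos with a +/+ sire.

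The members past the threshold were found between litters of the same group. In Dppa2/4+/- embryos with a +/+ sire, *Oosp1* was at 53.4 to 314 RPM in the 7 embryos of litter 1 (median 180) and at 443 to 1492 RPM in the 8 embryos of litter 2 (median 1107). The litters did not overlap. The difference, litter 2 minus litter 1, was 2.70 ± 0.36 on the log2 scale (limma, adjusted p = 2.39e-06), and it passed in all 8 other settings, from 2.51 to 3.05 (limma, adjusted p from 2.28e-09 to 0.0017). *Oosp1* was the 1 member called of 7 between these litters, where 4.99% of all genes were called higher and 16.6% in either direction. The split of these calls turned with the scaling, from 819 higher and 1911 lower to 1872 higher and 1154 lower with embryos re-centred on their median, where the median of all genes moved from -0.06 to 0.29. The share of genes called higher is therefore not a fixed background for these litters.

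In Dppa2/4-/- embryos the order was the opposite. The 3 embryos of litter 1 were at 530 to 587 RPM of *Oosp1* (median 532) and the 7 of litter 2 at 102 to 226 RPM (median 158), again without overlap. The difference was -1.83 ± 0.47 (limma, adjusted p = 0.0369), and *Oosp1* was again the 1 member called, where 0.841% of all genes were called lower and 1.66% in either direction. Re-centring changed the split over all genes from 134 higher and 138 lower to 110 and 236, and the deposited values without the floor gave 60 and 41. The call was lost on leaving out any of the 3 embryos of litter 1 (limma, adjusted p from 0.0728 to 0.104, with differences from -1.85 to -1.78), on keeping only embryos with at least 500000 reads, 8 of the 10 Dppa2/4-/- embryos (limma, adjusted p = 0.116), and without the filter on low values (limma, adjusted p = 0.0812). The Dppa2/4+/- littermates lay on the same side, at 281 to 1035 RPM in the 4 embryos of litter 1 and 84.6 RPM in the embryo of litter 2. With these 5 littermates added and group as a term, *Oosp1* differed by -2.11 (limma, adjusted p = 0.00568), and *Bmp15* was called as well, at -1.88 (limma, adjusted p = 0.0338, with 0.0324 to 0.24 over its 12 other settings). In Dppa2/4+/+ embryos *Oosp1* was at 53.7 to 262 RPM in litter 1 (n = 10) and 203 to 780 RPM in litter 2 (n = 4). These litters overlap, and the difference of 1.08 ± 0.41 did not pass (limma, adjusted p = 0.156; 0 of 7 members called, 2.46% of all genes).

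The other secreted factors had litter differences of the same sign as *Oosp1* in all 3 groups, none past the threshold. *Bmp15* differed by 1.16 ± 0.48 between the Dppa2/4+/+ litters, 0.99 ± 0.42 between those with a +/+ sire and -1.78 ± 0.56 between the Dppa2/4-/- litters (limma, adjusted p = 0.203, 0.103 and 0.0776). In Dppa2/4-/- embryos the 3 of litter 1 held 717 to 1287 RPM of *Bmp15* and the 7 of litter 2 held 86.5 to 746 RPM. *Gdf9* differed by 1.23 ± 0.55, 1.04 ± 0.48 and -0.55 ± 0.64 (limma, adjusted p = 0.258, 0.142 and 0.757). *Zp3* had the opposite sign in each group, at -0.58 ± 0.54, -1.003 ± 0.47 and 0.76 ± 0.63 (limma, adjusted p = 0.771, 0.147 and 0.605). *Zp2* followed no single pattern, at 0.84 ± 0.53, -0.38 ± 0.46 and -1.51 ± 0.61 (limma, adjusted p = 0.522, 0.657 and 0.186). The *Zp2* values of the Dppa2/4-/- litters did not overlap, with 87.8 to 121 RPM in litter 1 and 14.2 to 56.0 RPM in litter 2. Their Dppa2/4+/- littermates lay the other way, at 48.1 to 73.0 RPM in litter 1 and 92.1 RPM in the embryo of litter 2, and with these added the *Zp2* difference was -0.92.

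**Figure D3:**
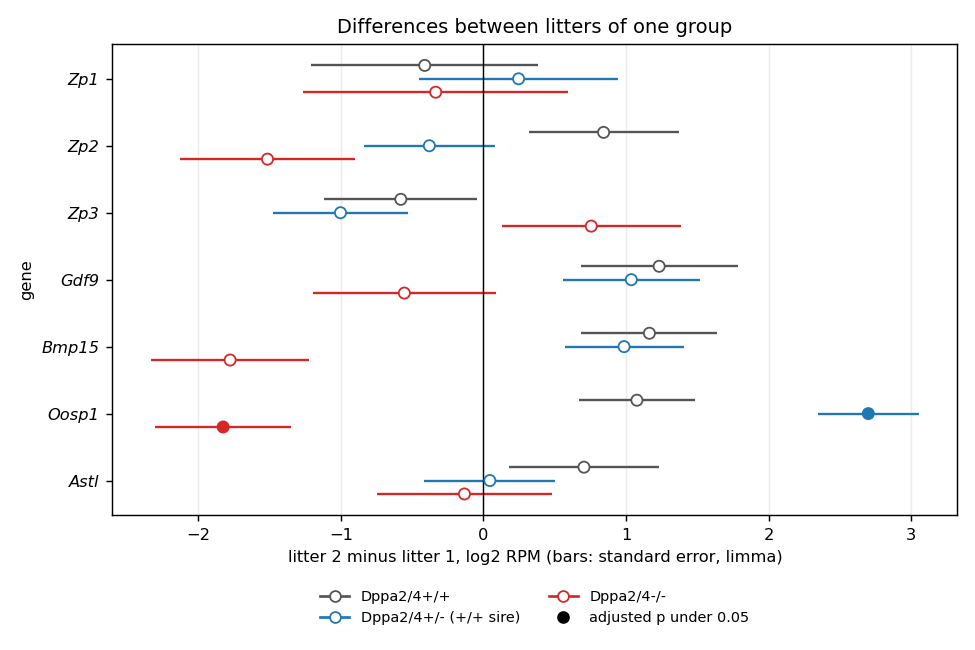
Difference between the litters of each group, litter 2 minus litter 1 (x axis: log2 RPM; bars: standard error from limma; filled points: adjusted p under 0.05). *Oosp1* is filled at 2.70 for the Dppa2/4+/- embryos with a +/+ sire and at -1.83 for the Dppa2/4-/- embryos, and every other point is open.

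Markers of the oocyte and of the two-cell stage were also compared between these litters. The summed level of 12 oocyte markers was 2613 to 7404 RPM in litter 1 and 9103 to 17900.1 RPM in litter 2 of the Dppa2/4+/- embryos with a +/+ sire, and 8443 to 10053 RPM in litter 1 and 3133 to 5531 RPM in litter 2 of the Dppa2/4-/- embryos. Neither pair overlaps. Between the former litters 6 of 12 oocyte markers were called higher in litter 2 (4.99% of all genes, a share that turns with the scaling as given above), among them *Btg4*, an adaptor of maternal mRNA decay, by 2.52 ± 0.35 (limma, adjusted p = 5.21e-06), and *Dnmt1* was called lower by -1.16 ± 0.41 (limma, adjusted p = 0.0449). Between the latter, 2 of 12, *Btg4* and *Omt2b*, were called lower in litter 2 (0.841% of all genes), by -2.18 ± 0.47 and -1.70 ± 0.43 (limma, adjusted p = 0.0125 and 0.0338). The summed markers of the two-cell stage, *Dppa2* and *Dppa4* among them, had medians of 468 and 827 RPM in the former litters and 413 and 102 RPM in the latter. Tested gene by gene, 8 of 11 two-cell markers were higher in litter 2 of the former (4.99% of all genes, on the same scaling), with a list median of 2.17 on the log2 scale beside -0.06 for all genes. *Tcstv1*, 1 of them, was higher by 4.23 ± 0.55 (limma, adjusted p = 2.27e-06). *Dppa2* and *Dppa4* were lower there, by -1.56 ± 0.29 and -1.79 ± 0.31 (limma, adjusted p = 0.000191 and 8.78e-05). Between the Dppa2/4-/- litters 2 of 11, *Tcstv1* and *Usp17lc*, were lower in litter 2 (0.841% of all genes), by -2.92 ± 0.74 and -3.14 ± 0.79 (limma, adjusted p = 0.0322 and 0.0319). Between the Dppa2/4+/+ litters 0 of 12 and 0 of 11 were called, where 2.46% of all genes were, so nothing is read from these counts. Median depth was 663861 and 524828 reads, and 1203546 and 673837 reads. The part of these in the *Oosp1* differences was not tested.

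Because all values of an embryo share its depth, the balance between 2 genes within an embryo was also described. *Zp3* minus *Oosp1* was -1.26 ± 0.99 on the log2 scale in litter 1 (SD, n = 7) and -4.96 ± 1.05 in litter 2 (n = 8) of the Dppa2/4+/- embryos with a +/+ sire, with ranges of -2.31 to 0.26 and -6.87 to -3.74. In Dppa2/4-/- embryos it was -3.86 ± 1.05 in litter 1 (n = 3) and -1.28 ± 1.15 in litter 2 (n = 7), with ranges that overlap. The Dppa2/4+/- littermates were at -4.80 ± 0.75 (n = 4) and -1.67 (n = 1). In Dppa2/4+/+ embryos it was -2.64 ± 1.22 (n = 10) and -3.70 ± 1.63 (n = 3, without an embryo that had no *Zp3* reads), and the ranges overlap. For the related ligands, *Bmp15* minus *Gdf9* was 2.41 ± 0.78 and 2.36 ± 1.01 in the 2 litters with a +/+ sire, and 3.34 ± 1.41 (n = 10) and 3.28 ± 1.08 (n = 4) in the Dppa2/4+/+ litters. It was 3.41 ± 1.45 (n = 3) and 2.19 ± 1.14 (n = 7) in the Dppa2/4-/- litters, and 3.20 ± 1.46 (n = 4) and 3.91 (n = 1) in their Dppa2/4+/- littermates.

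Across the 44 embryos, *Bmp15* and *Oosp1* had a Pearson correlation of 0.69 on the log2 scale, and 0.53 after the mean of each group and litter was taken away. *Gdf9* and *Oosp1* gave 0.65 and 0.41. *Zp3* and *Bmp15* gave -0.42 and -0.36. *Zp1* and *Zp3* gave 0.58 and 0.56, and *Zp2* and *Zp3* gave 0.01 and -0.01. *Zp2* and *Bmp15* gave 0.56 and 0.65. Points share their library and depth, and the level of each gene had its own correlation with log2 total reads. This was -0.52 for *Zp1*, -0.50 for *Zp3*, -0.41 for *Gdf9*, -0.31 for *Astl* and -0.27 for *Oosp1*, and 0.07 for *Zp2* and 0.10 for *Bmp15*. Among embryos with at least 500000 reads, the differences of Dppa2/4+/- embryos with a +/+ sire from Dppa2/4+/+ embryos ran from 0.31 (*Zp2*) to 1.23 (*Oosp1*), beside 0.20 (*Bmp15*) to 1.26 (*Oosp1*) over all embryos.

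**Figure D4:**
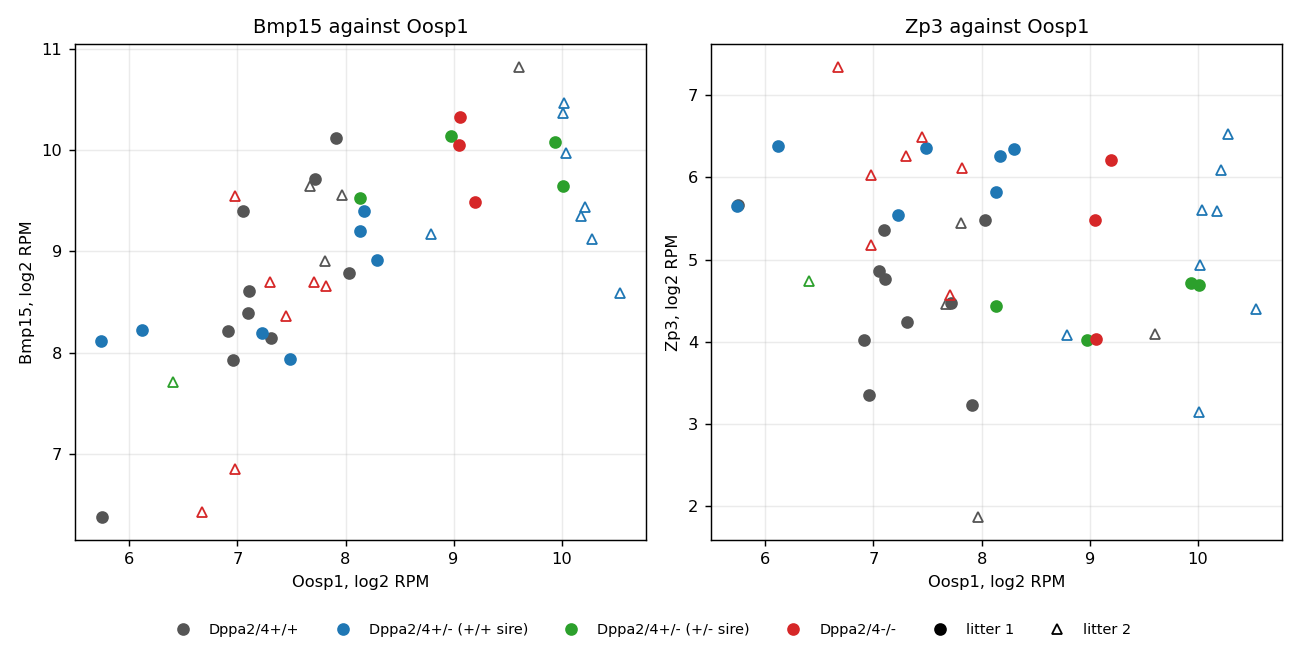
Level of *Bmp15* (left) and *Zp3* (right) against *Oosp1* in each of 44 embryos (both axes log2 RPM; colours are groups, filled circles litter 1 and open triangles litter 2). *Bmp15* is higher in embryos with more *Oosp1* (Pearson r = 0.69), and for *Zp3* r is -0.14.

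The genes whose level was most like the mean of the 7, each centred on its own mean, were *Bscl2* (Pearson r = 0.915 over 44 embryos), *4931406P16Rik* (0.909), *Accsl* (0.901), *Cdc42se2* (0.899) and *Mtmr14* (0.896).

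Other genes of the same pathways were listed by role, with earlier results of these data known. Of 7 further genes listed, 4 of the egg surface (*Izumo1r*, *Cd9*, *Cd81* and *Folr1*) were tested, and 0 were called in any comparison between groups. *Tmem95*, *Umod* and *Zan* did not pass the filter, and nothing on the egg surface is read from them. Between the litters with a +/+ sire 2 of 4 were called, where 16.6% of all genes were. *Cd9*, a tetraspanin of the egg membrane needed for sperm fusion, and *Folr1*, a folate receptor, were lower in litter 2 than litter 1 of the Dppa2/4+/- embryos with a +/+ sire, by log2 differences of -1.49 ± 0.48 and -2.20 ± 0.61 (limma, adjusted p = 0.0268 and 0.0101). *Cd81*, the related tetraspanin, was higher in litter 2 of the Dppa2/4+/+ embryos by 1.28 ± 0.25 (limma, adjusted p = 0.00182; 1 of 4 called, 2.46% of all genes). It had reads in 10 of 44 embryos and lay at the floor in both Dppa2/4+/- groups, whose spread of 0 enters the pooled standard error. *Izumo1r*, the egg receptor for sperm IZUMO1, had reads in 24 of 44 embryos and was not called.

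Among 8 other oocyte-secreted factors, 7 were tested. *Oosp3*, a relative of *Oosp1*, was the 1 of 7 called between the +/+ sired litters (16.6% of all genes, 4.99% higher), higher in litter 2 by 4.30 ± 0.65 (limma, adjusted p = 1.15e-05), while *Oosp2* and *Tgfb2* were not called there (limma, adjusted p = 0.117 and 0.0642). *Fgf10* was the 1 of 7 called between the Dppa2/4+/+ litters (2.46% of all genes), higher in litter 2 by 1.29 ± 0.35 (limma, adjusted p = 0.0285), with reads in 15 of 44 embryos. In comparisons between groups 0 of 7 were called. The median difference of Dppa2/4+/- embryos with a +/+ sire from Dppa2/4+/+ embryos was 0.66 on the log2 scale for this list and 0.05 for all genes with the common floor, and 1.11 and 0.61 without it.

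Of 15 receptors and SMAD proteins of the TGF-beta family, the inhibitory SMAD7 among them, 14 were tested, and 0 were called between groups. *Bmpr2*, the type II receptor of BMP15 and GDF9, was at a mean of 6.80 log2 RPM over all embryos, *Smad3* at 6.07 and *Bmpr1a* at 5.66, and their differences with a +/+ sire were 0.27, 0.65 and -0.37 (limma, adjusted p = 0.507, 0.345 and 0.606). *Smad1*, a transducer of BMP signals, was the 1 of 14 called between the litters with a +/+ sire (16.6% of all genes), and was higher in litter 2 by 1.70 ± 0.54 (limma, adjusted p = 0.026). Of 9 processing enzymes and inhibitors, 5 were tested and 0 were called in any of the 7 comparisons, where 0.0122% to 16.6% of all genes were. They were led by the proprotein convertase *Pcsk7* (3.09 log2 RPM), then *Furin* (2.18) and *Pcsk6* (1.98).

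Oocyte transcription factors that regulate zona and growth factor genes, or oocyte genes generally, were likewise not called between groups (0 of 9 tested, 10 listed). *Taf4b*, *Foxo3* and *Tcf12* had the highest levels, and *Foxo3* differed with a +/+ sire by 0.92 ± 0.28, not called at a limma adjusted p of 0.05 after rounding. *Lhx8* and *Tbpl2* were higher in litter 2 of the +/+ sired embryos, by 1.60 ± 0.54 and 0.41 ± 0.13 (limma, adjusted p = 0.0375 and 0.0308; 2 of 9 called, 16.6% of all genes). *Tbpl2* had reads in 9 of 44 embryos, 7 at most, and lay at the floor in every embryo of the other 3 groups, whose spread of 0 enters the pooled standard error. Of 12 oocyte markers, 5 (*Dppa3*, *Ooep*, *H1foo*, *Btg4* and *Bcl2l10*) were higher in Dppa2/4+/- embryos with a +/+ sire than in Dppa2/4+/+ embryos, where 4.58% of all genes were called, and 0 of 12 were called in the other 2 groups. *H1foo*, the oocyte linker histone, had the widest of these differences at 2.52 ± 0.53 (limma, adjusted p = 0.00451). With litter as a random effect, or with litter means as replicates, 0 of 16412 genes were called in this comparison. The 5 calls were therefore lost, and so were those of *Dppa2* (-1.99 ± 0.31) and *Dppa4* (-1.63 ± 0.29). The loss is not particular to the oocyte markers. Of 11 two-cell markers, *Tcstv1* was called higher in this comparison by 2.34 ± 0.67 (limma, adjusted p = 0.0339), and *Dppa2* and *Dppa4* lower. The median difference was 0.81 for the two-cell list and 0.76 for the oocyte list, beside 0.05 for all genes. The median oocyte marker sum was 4480 and 12755 RPM in litters 1 and 2 of the Dppa2/4+/- embryos with a +/+ sire, and 3898 and 6013 RPM in those of the Dppa2/4+/+ embryos. The part of litter in these calls cannot be told apart from that of the group.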

How the data were processed

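Per the labels and the study's methods, the authors captured polyadenylated RNA of single embryos by Smart-seq2 with oligo-dT and prepared Nextera XT libraries. Reads were trimmed with Trim Galore 0.6.5 and cutadapt 2.3 and mapped to GRCm38 with HISAT2 2.1.0, and those with a MAPQ of at least 20 were quantified by SeqMonk over mRNA probes, unstranded. The deposited values are log2 RPM, with 0.9 read given to genes without reads. Whole reads were recovered (99.999% of values above 0 within 0.05 read). About 3 reads are needed to tell a gene from 0, counting error only.

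Values under 1.86 log2 RPM (3.63 RPM), where a gene without reads stood in the shallowest embryo, were set to that floor, since depth differed between groups. Genes averaging 0 log2 RPM or more, 16412 in all, entered limma 3.58.1 in R 4.3.3 (trend), 4 groups or 8 combinations of group and litter in a single model over 44 embryos, or group and litter over 15 for Dppa2/4-/- against Dppa2/4+/- littermates. Adjustment was by Benjamini-Hochberg at 0.05. Genes at the floor in every embryo of a fit (118, or 1308 for the littermates) received p = 1. The methods name no test. The fit was also run on simulated counts. For comparisons between groups these held no litter differences, so they do not bear on how litter affects those p-values. Embryos of a litter share a mother, so p-values measure the spread between embryos. No 2 columns were identical. The members and the gene lists were chosen with earlier results of these data known. Named genes were the 7 members, the 3 highest of each list but the two-cell and sperm markers, and the 5 most correlated genes. Also named were genes that were absent or had few or 0 reads, and genes called within a list. Both of these kinds were chosen after their values were seen. Alternatives covered floor, filter, scaling, weights, litter, mating number and left-out embryos or litters. Protein sequences were not analysed here. The plots were made in matplotlib 3.10.9.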

Additional observations from a re-analysis of the deposited data

Results flagged for a closer look

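In a group of 5 Dppa2/4+/- embryos with a +/- sire, the level of *Bmp15* in replicate 5 stood far below the other 4, at 7.71 log2 RPM (362 reads) against 9.53 for the next lowest. This gap took 0.749 of the range of the group, where 0.71 is Dixon's critical value for 5 samples. It is the only embryo of this group from litter 2. Of 14 sets of values examined, 1 stood apart in this way, and chance gives about 1 in 20.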

How the results depend on the processing

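Of 700 values recomputed for the 7 genes, 618 kept their sign and their side of the threshold, 22 came past it, 5 fell short of it and 55 changed sign, 0 of these past the threshold. The cause of these changes was not tested. In Dppa2/4+/- embryos with a +/+ sire against Dppa2/4+/+ embryos the count of members called, 0, changed with the setting. It became 4 on the deposited values without the common floor (4054 of 16412 genes). Among genes averaging 3 log2 RPM or more it was 3 of 6 (1046 of 6919). It was 1 with embryos re-centred on their median (932 of 16412), 2 with array weights (900) and 1 with the mating number as a replicate block (593). On leaving out litters it was 0 to 2 (6 to 2342 genes). *Gdf9* passed without litter 1 of the cKO-x-WT mating (limma, adjusted p = 0.0171) and without litter 2 of the ctrl-x-WT mating (limma, adjusted p = 0.0279), at 1.63 and 1.49, and was at 0.59 (limma, adjusted p = 0.591) without litter 2 of the cKO-x-WT mating and 0.26 (limma, adjusted p = 0.924) without litter 1 of the ctrl-x-WT mating. Over all genes the count of 752 ran from 0, with litter as a random effect or with litter means, to 4054 on the deposited values, and 414 of the 752 were higher, beside 3505 of the 4054 and 320 of 932 when re-centred. In the other comparisons it ran from 0 to 111 (5 with a +/- sire), 0 to 246 (3 in Dppa2/4-/- embryos), 0 to 163 (2 against littermates), 169 to 926 (404 between the Dppa2/4+/+ litters), 1120 to 3038 (2730 between those with a +/+ sire) and 57 to 561 (272 between the Dppa2/4-/- litters). Between the Dppa2/4+/+ litters the 0 members called became 2 (*Bmp15* and *Oosp1*) with limma voom on the recovered reads (898 of 16412 genes). Between the litters with a +/+ sire the 1 called became 2 of 6 at a mean of at least 3 (2456 of 6919 genes). It became 3 when re-centred (3026 of 16412). Between the Dppa2/4-/- litters the 1 called became 2 of 6 at a mean of at least 3 (340 of 6919 genes) and 2 when re-centred (346 of 16412). It became 0 without the filter (88 of 35269) and with at least 500000 reads (57 of 16412). On leaving out each of 3 embryos it was also 0 (157 to 320 genes). With the littermates, a setting chosen after seeing the data, it was 2 (561 of 16412).

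Signs that changed were these. With litter means as replicates, *Bmp15* was at -0.087 with a +/+ sire, *Zp1*, *Gdf9*, *Bmp15* and *Astl* at -0.062, -0.62, -0.37 and -0.24 with a +/- sire, and *Astl* at -0.026 in Dppa2/4-/- embryos. With array weights *Zp3* was at -0.10 with a +/- sire and *Zp2* at -0.10 between Dppa2/4-/- embryos and littermates, and with litter as a random effect *Astl* was at -0.052 with a +/- sire. Re-centring moved the median of all genes from 0.05 to -0.13 with a +/+ sire and from 0.09 to -0.22 in Dppa2/4-/- embryos. It gave *Astl* at -0.21 in Dppa2/4-/- embryos against Dppa2/4+/+ embryos and *Zp2*, *Bmp15*, *Oosp1* and *Astl* at -0.24, -0.077, -0.12 and -0.14 against littermates. *Bmp15* in Dppa2/4-/- embryos became 0.14 with voom and 0.043 with at least 500000 reads, where *Astl* between the litters was 0.014. Between crosses, litter differences correlated at 0.45 (Dppa2/4+/+ and +/+ sire), -0.44 (Dppa2/4+/+ and Dppa2/4-/-) and -0.76 (+/+ sire and Dppa2/4-/-). These values do not settle whether same-numbered matings of different crosses are paired. Dppa2/4-/- embryos and their littermates do share litters. Without the litter term *Zp2*, *Bmp15* and *Oosp1* against littermates were at -0.39, -0.71 and -0.87. With log2(RPM + 1), *Zp1* between the +/+ sired litters was -0.031.

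On leaving out litters or embryos, *Zp2*, *Bmp15* and *Oosp1* with a +/+ sire ran from -0.35 to 0.50, -0.64 to 0.66 and -0.18 to 2.52. With a +/- sire, where leaving out litter 1 leaves a single embryo assumed to vary like the others, *Zp1*, *Zp3*, *Gdf9*, *Bmp15*, *Oosp1* and *Astl* ran from -1.38 to 1.08, -0.026 to 0.55, -1.78 to 1.06, -1.19 to 0.94, -1.09 to 1.77 and -0.46 to 0.25. In Dppa2/4-/- embryos *Gdf9*, *Bmp15*, *Oosp1* and *Astl* ran from -0.30 to 0.97, -1.02 to 1.05, -0.44 to 1.61 and -0.40 to 0.30. Against littermates *Zp2*, *Gdf9* and *Oosp1* ran from -1.35 to 0.80, -0.094 to 2.19 and -0.16 to 0.87. Between litters, *Zp3* ran from -1.07 to 0.12 in Dppa2/4+/+ embryos, and *Zp1* and *Astl* from -1.64 to 0.40 and -0.38 to 0.28 in Dppa2/4-/- embryos. At 0 to 29 reads, *Astl* had the fewest reads of the 7 genes.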
